A study of Mus musculus with 18 samples.

Results

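Molecular chaperones bind proteins that are not yet folded, or that have lost their fold, and let them reach the native state. This account covers 37 mouse chaperone genes in ischemic kidneys, chosen by name from a fixed list: the 8 subunits of the CCT chaperonin (also called TRiC), the HSP70, HSP110 and HSP90 chaperones with their co-chaperones and J proteins, small heat shock proteins, the chaperones of the endoplasmic reticulum (ER) and of mitochondria, and the heat shock factor *Hsf1*. All 37 were found among the 45706 genes of the count data, and all 37 passed the filter on low counts in both cohorts. The rule takes them by symbol and uses no measured value, although the list was drawn up with earlier results of these data known.

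The CCT chaperonin is a double ring built from different subunits that folds actin, tubulin and many WD-repeat proteins, and most of its subunits are made at all times. HSP70 chaperones bind short exposed stretches of a chain with the help of J proteins, and HSP90 acts later on nearly folded clients such as kinases and steroid receptors. Part of the family, with *Hspa1a* and *Hspa1b* at its head, is induced through HSF1 when proteins unfold, and renal ischemia is a well known inducer of it. ER chaperones such as *Hspa5* (BiP) are instead controlled by the unfolded protein response.

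Whole kidneys came from C57BL/6 males 10 to 12 weeks old, which the paper calls littermates. *Myc* KO and *Cxcl12* KO mice carried the floxed gene with Pax8rtTA and TetOCre, and controls carried the floxed gene with Pax8rtTA but no TetOCre. KO and control mice alike drank doxycycline at 2 mg/ml for 14 days, rested for 1 week, and underwent bilateral renal ischemia of 22.5 min, with the body held at 37 °C, and 12 h of reperfusion. The *Myc* cohort held 5 KO and 5 control kidneys, and the *Cxcl12* cohort 5 KO and 3 control kidneys. No uninjured kidney was analysed here, so the values below compare genotypes after injury and say nothing of induction by injury itself. Pax8rtTA acts in tubule cells, so that vessels, interstitium and infiltrating cells of a KO kidney kept the gene, and in whole kidneys fewer cells of a type cannot be told apart from less mRNA per cell.

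*Myc* mRNA stood at 26.6 to 37.02 CPM (reads of the gene per 1000000 reads on genes, TMM-scaled over all 18 kidneys) in *Myc* KO and at 79.7 to 117 CPM in *Myc* control kidneys, and it fell by 1.61 on the log2 scale (SE 0.12, adjusted p = 8.8e-05 by edgeR). *Cxcl12* mRNA stood at 26.3 to 40.9 CPM in its KO and at 44.9 to 60.5 CPM in its control kidneys, without overlap, and the log2 fold change of -0.73 (SE 0.15) had an adjusted p of 0.094 by edgeR and 0.0017 by DESeq2. Libraries held from 12918220 to 29749500 reads on genes. In 6 libraries (2 KO and 2 control of the *Myc* cohort, 2 KO and 0 control of the *Cxcl12* cohort) under 5% of the reads were unmapped, against at least 5.28% in the other 12. These 6 were also the deepest, with 22437067 to 29749500 reads on genes against 12918220 to 18006784, so that this split is equally one of depth. The study's methods mention a ComBat calibration for batch effects, which the raw counts used here do not carry, and the sources used here do not say which kidneys formed a batch. Ratios within each of these library groups are given for the CCT subunits and for several members outside CCT where they were far apart. Markers of proximal tubule summed to between 3168 and 5075 CPM in every kidney, while those of T and B lymphocytes stayed below 1 CPM. By group, the proximal tubule sums were 3705 to 4184 CPM in *Cxcl12* KO and 4144 to 5033 CPM in *Cxcl12* control kidneys. They were 3168 to 5075 CPM in *Myc* KO and 3541 to 4137 CPM in *Myc* control kidneys.

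To show the DNA next to which these mRNAs start, promoter windows of 300 bases were taken from RefSeq on GRCm38.p6, 250 bases before the start and 50 after it, for the 28 of the 37 members that have one in the table. *Cct5* and *Cct3* are shown because they carried the largest *Myc* KO effects among the subunits, and *Hsph1* and *Hspa5* because they stand for the heat-inducible and the ER members. The windows are chr15:31601797-31602096 on the minus strand for *Cct5* (one of its 2 windows), chr3:88296885-88297184 on the plus strand for *Cct3*, chr5:149636287-149636586 on the minus strand for *Hsph1* (one of its 2 windows) and chr2:34771840-34772139 on the plus strand for *Hspa5*. Each is printed 5′ to 3′ in the direction of transcription. Capitals in *Hsph1* mark an E-box and a heat shock element, and capitals in *Hspa5* mark the ends of an ER stress element.
*Cct5*: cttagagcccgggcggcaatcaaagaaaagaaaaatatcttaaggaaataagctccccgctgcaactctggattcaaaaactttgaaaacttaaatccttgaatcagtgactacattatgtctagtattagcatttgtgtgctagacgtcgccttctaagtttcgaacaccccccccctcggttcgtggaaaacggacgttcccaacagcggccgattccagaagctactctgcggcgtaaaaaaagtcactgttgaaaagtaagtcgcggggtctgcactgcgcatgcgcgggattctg
*Cct3*: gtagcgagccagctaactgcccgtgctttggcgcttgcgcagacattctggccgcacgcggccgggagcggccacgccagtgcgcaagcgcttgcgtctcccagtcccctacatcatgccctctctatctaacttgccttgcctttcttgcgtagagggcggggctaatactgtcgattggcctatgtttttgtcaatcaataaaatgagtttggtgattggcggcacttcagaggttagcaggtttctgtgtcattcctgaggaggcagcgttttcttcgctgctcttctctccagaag
*Hsph1*: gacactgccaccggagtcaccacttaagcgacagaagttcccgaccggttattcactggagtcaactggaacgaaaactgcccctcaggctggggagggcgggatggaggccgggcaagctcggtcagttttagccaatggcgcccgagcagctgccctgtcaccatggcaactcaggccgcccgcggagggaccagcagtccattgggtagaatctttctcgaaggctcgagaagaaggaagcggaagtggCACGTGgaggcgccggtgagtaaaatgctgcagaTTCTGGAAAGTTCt
*Hspa5*: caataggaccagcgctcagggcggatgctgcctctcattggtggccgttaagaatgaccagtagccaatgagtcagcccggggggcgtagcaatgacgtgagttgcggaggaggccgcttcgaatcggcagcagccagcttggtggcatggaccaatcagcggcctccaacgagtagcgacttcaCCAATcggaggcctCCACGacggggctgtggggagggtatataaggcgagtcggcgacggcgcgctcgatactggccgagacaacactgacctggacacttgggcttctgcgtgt

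The E-box CACGTG, the sequence bound by MYC with its partner MAX, was in 0 windows of the 7 CCT subunits with a window and in 3 of the 28 members (*Dnajb9*, *Hspd1* and *Hsph1*), while 7.15% of all 32851 windows held it. The heat shock element was searched as GAANNTTCNNGAA and, for the other strand, TTCNNGAANNTTC. It was in the windows of *Hspd1*, *Hspe1* and *Hsph1*, against 0.603% of all windows, and in *Hsph1* it ran from base 36 to base 48 after the start, with the E-box at bases 2 to 7, the first base after the 250 upstream ones being counted as 0. The ER stress element, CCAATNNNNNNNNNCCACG or its other strand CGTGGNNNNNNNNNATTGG, was in *Hspa5* (65 to 47 bases before the start) and *Hsp90b1*, against 0.119% of all windows. A member was counted if any of its windows held the motif, whereas the shares given beside it are of single windows, so the 2 are not on the same basis. The motifs did not overlap in the printed windows. They describe letters in these windows only, and no binding was measured.

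Of the 37 members, 2 differed between *Myc* KO and *Myc* control kidneys at an adjusted p under 0.05 by edgeR's quasi-likelihood test, and both are CCT subunits that fell. Of all 14936 genes tested, 1.65% passed the same threshold, and 1.29% passed it with lower mRNA in KO kidneys. The median log2 fold change of the members was -0.08, beside 0.00 over all genes, and 22 of the 37 were negative. In the plot of KO effects the CCT subunits form a narrow block on the negative side, while the estimates of the other members lie on both sides, most with wider intervals.

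**Figure D1:**
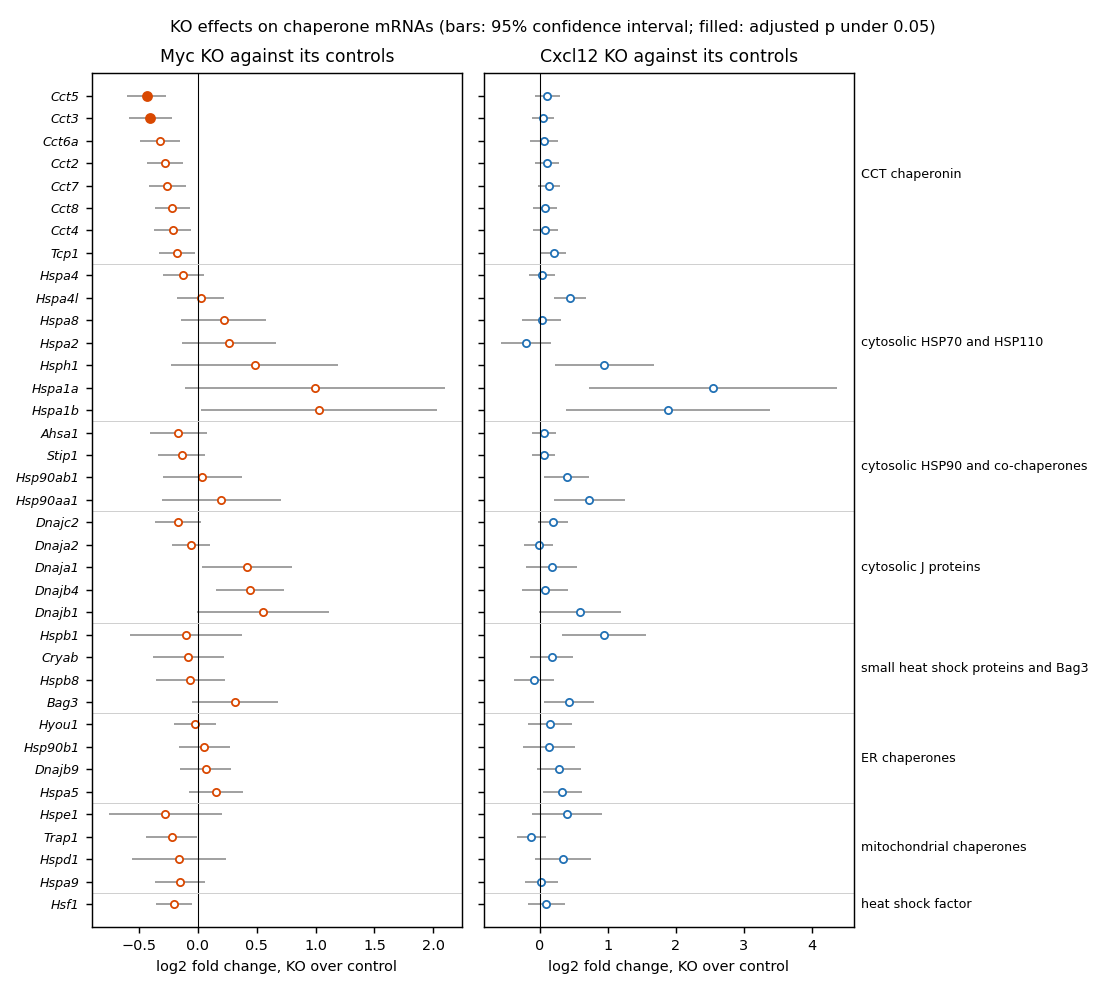
Log2 fold changes of the 37 chaperone mRNAs, KO over control, in the *Myc* cohort (left) and the *Cxcl12* cohort (right, with a wider axis), ordered by role. Points are estimates from edgeR's quasi-likelihood fit, bars are 95% confidence intervals, and the 2 filled points, *Cct5* and *Cct3* in the *Myc* cohort, have an adjusted p under 0.05.

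All 8 CCT subunits were lower in *Myc* KO than in *Myc* control kidneys, with log2 fold changes from -0.43 to -0.18, and 2 of the 8 fell by the test. *Cct5* (ENSMUSG00000022234, chromosome 15, 31590800 to 31601804 of GRCm38, minus strand), which encodes the epsilon subunit, had 221, 200, 189, 199 and 191 CPM in the 5 *Myc* KO kidneys and 246, 290, 260, 288 and 266 CPM in the 5 *Myc* control kidneys. Every KO kidney thus lay below every control kidney. The means were 199.9 ± 12.6 and 270.0 ± 18.8 CPM (SD, n = 5 each), a log2 fold change of -0.43 (SE 0.077, 95% confidence interval -0.60 to -0.27, adjusted p = 0.022 by edgeR).

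*Cct3* (ENSMUSG00000001416, chromosome 3, 88297116 to 88321767, plus strand) encodes the gamma subunit. It had 199, 167, 168, 162 and 164 CPM in *Myc* KO and 212, 241, 211, 253 and 219 CPM in *Myc* control kidneys. The groups did not overlap, although the first KO kidney stood apart from the other 4 and close to the lowest control. This gave a log2 fold change of -0.40 (SE 0.085, 95% confidence interval -0.59 to -0.22, adjusted p = 0.037 by edgeR).

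The call of *Cct5* was lost when *Myc* KO kidney 2, 3, 4 or 5 or *Myc* control kidney 2 was left out, with an adjusted p of at most 0.085 by edgeR, and that of *Cct3* also without *Myc* control kidney 4 or 5 (at most 0.11). Over these fits the log2 fold change kept between -0.47 and -0.40 for *Cct5* and between -0.46 and -0.36 for *Cct3*. Both calls were also lost with a block for the replicate number, where edgeR called 18 of all 14936 genes. With only the 6 *Myc* libraries of 5% or more unmapped reads, edgeR gave -0.44 for *Cct5* (adjusted p = 0.062) and -0.43 for *Cct3* (adjusted p = 0.081), so that 0 members were called. Of all 15033 genes in that fit, 8 were called.

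*Cct6a*, encoding the zeta subunit, had 228, 214, 213, 191 and 226 CPM in *Myc* KO and 270, 281, 256, 287 and 245 CPM in *Myc* control kidneys, again without overlap. Its log2 fold change of -0.32 (SE 0.077) did not pass the threshold (adjusted p = 0.059 by edgeR). The remaining 5 subunits, *Tcp1*, *Cct2*, *Cct4*, *Cct7* and *Cct8*, had log2 fold changes from -0.28 (*Cct2*) to -0.18 (*Tcp1*) with adjusted p-values from 0.068 to 0.17 by edgeR. DESeq2 called all 8 subunits (adjusted p from 1.6e-06 for *Cct5* to 0.048 for *Tcp1*) and 9 members in all, beside 7.63% of all genes.

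In 7 of the 8 subunits every *Myc* KO kidney lay below every *Myc* control kidney, the exception being *Tcp1*, where KO kidney 1 (246 CPM) was above control kidney 5 (243 CPM). Over all 37 members this held for 8, the eighth being *Hsf1*, and the reverse held for 0. Among all genes tested, 3.92% were below and 2.05% above in this way. The subunits were lower in KO kidneys in both library groups: the median of their log2 ratios of group means was -0.29 among the low-unmapped libraries (2 KO against 2 control, all 8 negative) and -0.26 among the others (3 against 3, all 8 negative).

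**Figure D2:**
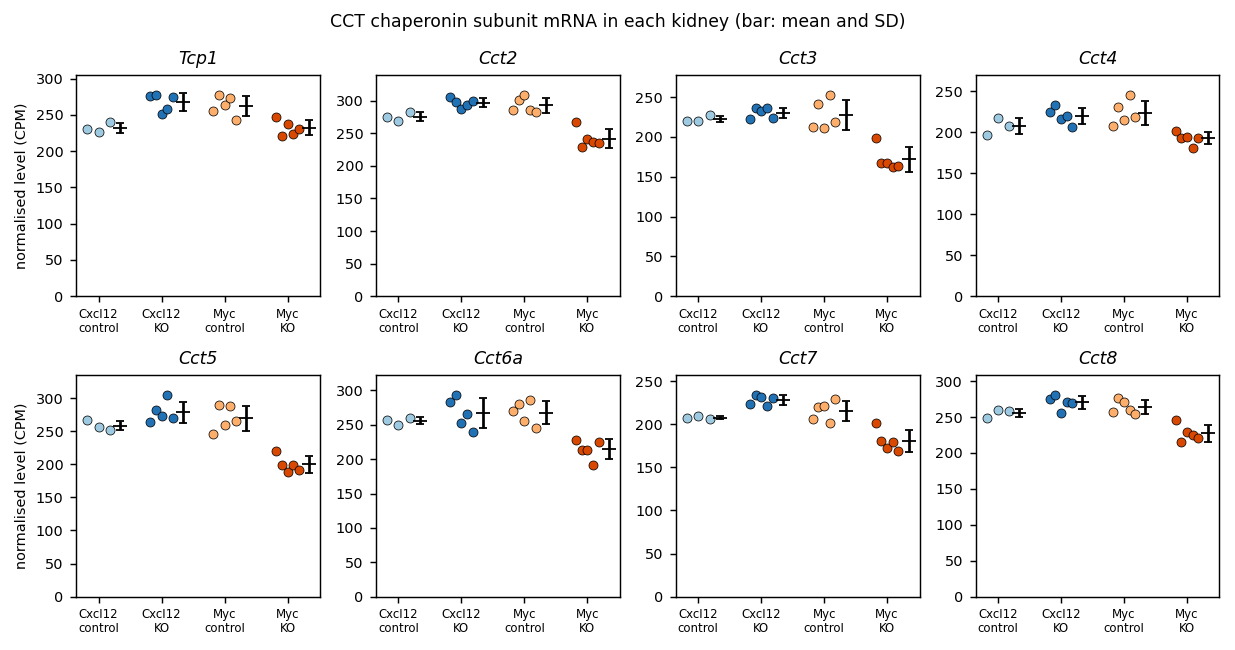
Level of each CCT subunit mRNA in all 18 kidneys, in TMM-scaled CPM on an axis from 0. Each point is a kidney and the bars give the mean and SD of the group; the *Myc* KO kidneys form the lowest group for each subunit but *Tcp1*, where they lie level with the *Cxcl12* controls.

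Per kilobase of transcript, the subunits stood within a narrow range of each other. In *Myc* control kidneys *Cct2* had 150 ± 5.87 CPM per kilobase and *Cct5* 146 ± 10.2 (SD, n = 5 each), which did not differ beyond their spread. *Cct3* (115 ± 9.48), *Cct8* (110 ± 3.97) and *Tcp1* (107 ± 5.74) followed within their spread of each other, and *Cct4* (89.9 ± 6.07) and *Cct7* (88.4 ± 4.75) were last. In *Myc* KO kidneys *Cct2* (123 ± 7.49 CPM per kilobase) stood above *Cct5* (108 ± 6.78), and the range reached down to 74.0 ± 5.09 for *Cct7*. The SDs are between kidneys, and the subunits were not compared kidney by kidney. The length was that of the highest-ranked principal transcript of the annotation, or the longest of these. The order of the subunits depends on this choice, which the SDs do not measure. *Cct6a* was left out because its annotation marks no principal transcript.

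The same 8 subunits were not lower in *Cxcl12* KO kidneys. Their log2 fold changes against *Cxcl12* controls were all positive, from 0.05 (*Cct3*) to 0.20 (*Tcp1*), and 0 of the 8 passed edgeR's test (smallest adjusted p = 0.34, for *Tcp1*) or DESeq2. *Tcp1*, which encodes the alpha subunit, had 276, 278, 250.8, 259 and 275 CPM in *Cxcl12* KO and 230, 227 and 240 CPM in *Cxcl12* control kidneys, so that all KO kidneys were higher. *Cct5* had 264, 282, 273, 305 and 271 CPM in *Cxcl12* KO and 267, 257 and 253 CPM in *Cxcl12* control kidneys, which overlapped. The sign of *Cct6a* turned to -0.03 with only the libraries of 5% or more unmapped reads.

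The difference of the KO effects, *Myc* minus *Cxcl12*, was tested over all 18 kidneys. It was negative for all 8 subunits, from -0.54 (*Cct5*) to -0.30 (*Cct8*), but 0 passed the threshold of edgeR's test, with *Cct5* closest (SE 0.10, 95% confidence interval -0.76 to -0.32, adjusted p = 0.058). Of all 37 members, 0 were called by edgeR, beside 0.0692% of all 15903 genes, and 12 had an unadjusted p under 0.05, beside 11.4% of all genes. DESeq2 called 8 members, which were the 8 CCT subunits, beside 1.97% of all genes. Over the members 32 of 37 differences were negative, with a median of -0.30, beside -0.01 over all genes. Without *Myc* KO kidney 1 edgeR called 2 members (*Cct3* and *Cct5*), and *Cct5* was also called (1 member in each fit) without *Myc* KO kidney 5, *Myc* control kidney 1 or *Cxcl12* KO kidney 1. Over all genes, these fits called from 24 to 75.

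The cytosolic HSP70 and HSP110 members showed another picture: 6 of the 7 log2 fold changes were positive in each cohort, kidneys of one group differed widely, and 0 of the 7 were called by edgeR in either cohort. *Hspa1a* and *Hspa1b* (chromosome 17, 34969190 to 34972156 and 34956436 to 34959238, both minus strand) encode the stress-inducible HSP70. *Hspa1a* had 456, 331, 322, 628 and 212 CPM in *Myc* KO and 124, 217, 386, 24.8 and 226 CPM in *Myc* control kidneys. Control kidney 4 was thus far below all others of its cohort, and the groups overlapped. Its log2 fold change was 0.99 (SE 0.51, 95% confidence interval -0.11 to 2.10, adjusted p = 0.27 by edgeR).

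In the *Cxcl12* cohort *Hspa1a* had 57.4, 70.7, 299, 12.2 and 51.3 CPM in KO and 12.1, 24.6 and 13.3 CPM in control kidneys. KO kidney 4 was at the level of the controls, and the other 4 KO kidneys were above all of them. The estimate was 2.54 on the log2 scale (SE 0.83, 95% confidence interval 0.72 to 4.37, adjusted p = 0.25 by edgeR). When 1 kidney was left out it lay between 1.52 (without KO kidney 3) and 2.94, with adjusted p-values of edgeR from 0.13 to 0.59. The *Hspa1a* level of each of the 5 *Myc* controls was above that of each of the 3 *Cxcl12* controls, and *Hspa1a* ranged 52.1-fold over the 18 kidneys.

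*Hspa1b* had 784, 574, 599, 1057 and 368 CPM in *Myc* KO, and 242, 356, 632, 56.0 and 371 CPM in *Myc* control kidneys, with the same kidneys highest and lowest as for *Hspa1a*. Its log2 fold change was 1.03 (SE 0.46, adjusted p = 0.22 by edgeR), and in the *Cxcl12* cohort 1.88 (SE 0.68, adjusted p = 0.29 by edgeR). Both genes share sequence: 60.3% of the 50-base stretches of the *Hspa1a* transcript and 62.3% of those of *Hspa1b* occur in a transcript of another gene, mostly each other's. STAR counts only reads with a single place in the genome, so reads from shared stretches are missing from both and the split between the genes is uncertain. *Hspa8*, *Hsp90aa1*, *Hspb1*, *Hspd1* and *Hspe1* also shared over 20% of these stretches with other genes or pseudogenes.

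*Hspa4l*, an HSP110-like nucleotide exchange factor for HSP70, had the smallest p of all members in the *Cxcl12* cohort. It had 83.8, 66.8, 68.0, 78.0 and 76.7 CPM in *Cxcl12* KO and 60.5, 56.4 and 47.7 CPM in *Cxcl12* control kidneys, without overlap. Its log2 fold change was 0.44 (SE 0.11), with an adjusted p of 0.13 by edgeR and 0.016 by DESeq2. In the *Myc* cohort it was 0.03 (SE 0.092) and the groups overlapped (65.5 to 78.9 CPM in KO, 60.7 to 80.3 CPM in control kidneys), and the difference of the effects was not called (adjusted p = 0.22 by edgeR).

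*Hsph1*, the inducible HSP110, had 839, 624, 668, 1018 and 406 CPM in *Myc* KO and 518, 591, 821, 185 and 428 CPM in *Myc* control kidneys. As for *Hspa1a*, control kidney 4 was lowest and KO kidney 4 highest. Of the constitutive members, *Hspa8* (HSC70) had log2 fold changes of 0.22 (SE 0.17) in the *Myc* and 0.02 (SE 0.13) in the *Cxcl12* cohort, and *Hspa4* of -0.12 (SE 0.080) and 0.03 (SE 0.088). *Hspa2*, best known from testis, had the lowest level per kilobase of the members with a principal transcript, at a mean of 2.44 CPM per kilobase.

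Among the HSP90 genes, *Hsp90ab1* encodes the constitutive form and had the highest level per kilobase of all members (a mean of 839 CPM per kilobase over the 18 kidneys), and *Hsp90aa1* encodes the inducible form. *Hsp90aa1* had 575, 403, 373, 606 and 298 CPM in *Myc* KO and 413, 511, 487, 231 and 323 CPM in *Myc* control kidneys, which overlapped (log2 fold change 0.20, SE 0.23, adjusted p = 0.65 by edgeR). In the *Cxcl12* cohort it had 280, 348, 396, 170 and 403 CPM in KO and 204, 197 and 178 CPM in control kidneys, where KO kidney 4 was the lowest of the 8 and the other KO kidneys were above the controls. Its log2 fold change there was 0.72 (SE 0.24), with an adjusted p of 0.25 by edgeR. *Stip1* (HOP), which passes clients from HSP70 to HSP90, and *Ahsa1*, which activates the HSP90 ATPase, had log2 fold changes of -0.14 (SE 0.093) and -0.16 (SE 0.11) in the *Myc* cohort and of 0.06 (SE 0.076) and 0.05 (SE 0.079) in the *Cxcl12* cohort.

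The HSP90 genes of the *Myc* cohort had other ratios in each library group. All 4 genes of this role were lower in KO kidneys among the low-unmapped libraries, with a median log2 ratio of -0.36, while among the others 2 of the 4 were lower and the median was 0.12. *Hsp90aa1* had a log2 ratio of -0.42 among the low-unmapped libraries and 0.57 among the others. Several members of other roles were also higher in KO kidneys mainly among the libraries of 5% or more unmapped reads. *Hspa1a* had log2 ratios of 0.07 (low-unmapped) and 1.60 (others), *Hspa1b* of 0.15 and 1.62, and *Dnaja1* of 0.01 and 0.68. The sign turned from negative to positive for *Hsph1* (-0.32 and 1.04), *Hspa8* (-0.24 and 0.51), *Dnajb1* (-0.10 and 0.89), *Bag3* (-0.04 and 0.55), *Hspb1* (-0.54 and 0.16) and *Hspd1* (-0.60 and 0.12). It also did so for *Hspa5* (-0.03 and 0.28), *Dnajb9* (-0.07 and 0.17), *Cryab* (-0.22 and 0.01) and *Dnaja2* (-0.16 and 0.01). The reverse held for *Hspb8* (0.13 and -0.21), *Hsp90b1* (0.17 and -0.04) and *Hyou1* (0.07 and -0.10). These ratios rest on 2 KO and 2 control kidneys (low-unmapped) and on 3 and 3 (others). For *Hspa1a*, the lowest KO kidney (5) and the highest control (3) were low-unmapped, and the lowest control (4) was not. The part of the library group in these values was not tested.

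J proteins bring clients to HSP70 and start its ATPase. *Dnajb1* (HSP40), the inducible one, had 231, 173, 130, 227 and 98.7 CPM in *Myc* KO and 94.2, 150, 150, 67.1 and 123 CPM in *Myc* control kidneys. The groups overlapped, the log2 fold change was 0.55 (SE 0.26, adjusted p = 0.23 by edgeR), and it was not positive among the low-unmapped libraries, as given above. Against *Cxcl12* controls it was 0.59 (SE 0.27, adjusted p = 0.39 by edgeR). *Dnajb4* was the only member called by DESeq2 as higher in *Myc* KO kidneys (log2 fold change 0.44, SE 0.13, adjusted p = 0.030 by DESeq2 and 0.10 by edgeR), and its groups overlapped (87.6 to 120 CPM against 56.8 to 98.97 CPM). *Dnaja1* had 0.42 (SE 0.18), while *Dnaja2* and *Dnajc2*, a J protein of the ribosome, were at -0.06 (SE 0.075) and -0.17 (SE 0.089) in the *Myc* cohort. By edgeR, 0 of the 5 J proteins were called in either cohort.

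Small heat shock proteins hold unfolding proteins in a soluble state without ATP, and BAG3 links them to HSP70. *Hspb1* (HSP25 in the mouse) had 42.6, 57.1, 79.6, 29.4 and 67.2 CPM in *Cxcl12* KO and 24.3, 35.5 and 25.6 CPM in *Cxcl12* control kidneys. Again KO kidney 4 was the one within the range of the controls. Its log2 fold change was 0.94 (SE 0.28), with an adjusted p of 0.21 by edgeR and 0.023 by DESeq2, and 58.9% of the 50-base stretches of its transcript are shared with a pseudogene. In the *Myc* cohort it was -0.10 (SE 0.22) with 88.9, 64.3, 51.6, 62.6 and 47.9 CPM in KO and 53.7, 90.2, 90.7, 42.3 and 60.2 CPM in control kidneys, which overlapped.

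*Bag3* had 160, 134, 131, 156 and 104 CPM in *Myc* KO and 97.8, 122, 144, 71.7 and 115 CPM in *Myc* control kidneys, with a log2 fold change of 0.32 (SE 0.17, adjusted p = 0.29 by edgeR). *Cryab* (alpha B-crystallin) and *Hspb8* had log2 fold changes within 0.17 of 0 in both cohorts. By edgeR 0 of these 4 genes were called in either cohort.

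No ER member was called in either cohort. *Hspa5* (chromosome 2, 34771970 to 34777547, plus strand) had 1064, 841, 915, 1032 and 874 CPM in *Myc* KO and 826, 896, 996, 719 and 802 CPM in *Myc* control kidneys, which overlapped (log2 fold change 0.16, SE 0.11, adjusted p = 0.40 by edgeR). In the *Cxcl12* cohort all KO kidneys (1001, 978, 814, 836 and 922 CPM) were above all controls (773, 809 and 587 CPM), with a log2 fold change of 0.33 (SE 0.13, adjusted p = 0.32 by edgeR). *Hsp90b1* (GRP94), *Hyou1* (GRP170) and the J protein *Dnajb9* had log2 fold changes from -0.03 to 0.07 against *Myc* controls and from 0.13 to 0.28 against *Cxcl12* controls.

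The mitochondrial members were all negative in the *Myc* cohort, with log2 fold changes from -0.27 to -0.15, and 0 of the 4 were called. *Hspe1* (HSP10), which caps the HSP60 ring encoded by *Hspd1*, had 121, 87.2, 78.1, 145 and 59.8 CPM in *Myc* KO and 101, 167, 120, 102 and 103 CPM in *Myc* control kidneys, a log2 fold change of -0.27 (SE 0.22, adjusted p = 0.49 by edgeR). The median log2 ratio of the 4 was -0.48 among the low-unmapped libraries and -0.04 among the others. In the *Cxcl12* cohort *Hspe1* was at 0.39 (SE 0.23), *Hspd1* at 0.34 (SE 0.19), *Hspa9* (mortalin) at 0.02 (SE 0.11) and *Trap1*, the mitochondrial HSP90, at -0.13 (SE 0.096). *Hspd1* and *Hspe1* lie head to head on chromosome 1 and overlap at their starts (55077835 to 55088243, minus strand, and 55088132 to 55091307, plus strand), where counts without strand cannot tell them apart.

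*Hsf1* (chromosome 15, 76477422 to 76501913, plus strand), whose product drives the heat-inducible members, had 33.4, 30.7, 28.7, 29.9 and 28.1 CPM in *Myc* KO and 34.03, 33.6, 34.05, 34.6 and 36.7 CPM in *Myc* control kidneys. All KO kidneys were below all controls, by a narrow margin. The log2 fold change of -0.20 (SE 0.069) did not pass the threshold (adjusted p = 0.14 by edgeR and 0.066 by DESeq2). Against *Cxcl12* controls *Hsf1* was at 0.09 (SE 0.13).

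Of all 37 members 0 were called by edgeR in the *Cxcl12* cohort, beside 0% of all 15154 genes, and 10 of the 37 had an unadjusted p under 0.05, beside 13.0% of all genes. DESeq2 called 2 (*Hspa4l* and *Hspb1*), beside 2.34% of all genes. The log2 fold changes were positive for 33 of the 37 members, with a median of 0.13, beside 0.00 over all genes. All KO kidneys were above all controls for 5 members (*Tcp1*, *Cct2*, *Cct7*, *Hspa4l* and *Hspa5*) and below for 0, while 4.96% and 4.72% of all genes were above and below. The 4 negative members were *Hspa2*, *Trap1*, *Hspb8* and *Dnaja2*.

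The members differed widely in how much kidneys of one group varied. The SD of log2 CPM within groups, pooled over the 4 groups, was from 0.057 to 0.098 for the 8 CCT subunits, which put them at percentiles from 0.271 to 8.96 of the 11072 genes with a mean of at least 5 CPM and a count in every kidney (median 0.17). The subunits had means of 208 to 277 CPM, and the genes compared were not matched to them for level. *Hspa1a* had an SD of 1.25 and *Hspa1b* of 1.08, at percentiles 99.9 and 99.8, and *Hsph1* one of 0.64. *Dnajb1*, *Hspb1*, *Hsp90aa1* and *Hspe1* were the other members above 0.4, a threshold set after the values were seen.

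**Figure D3:**
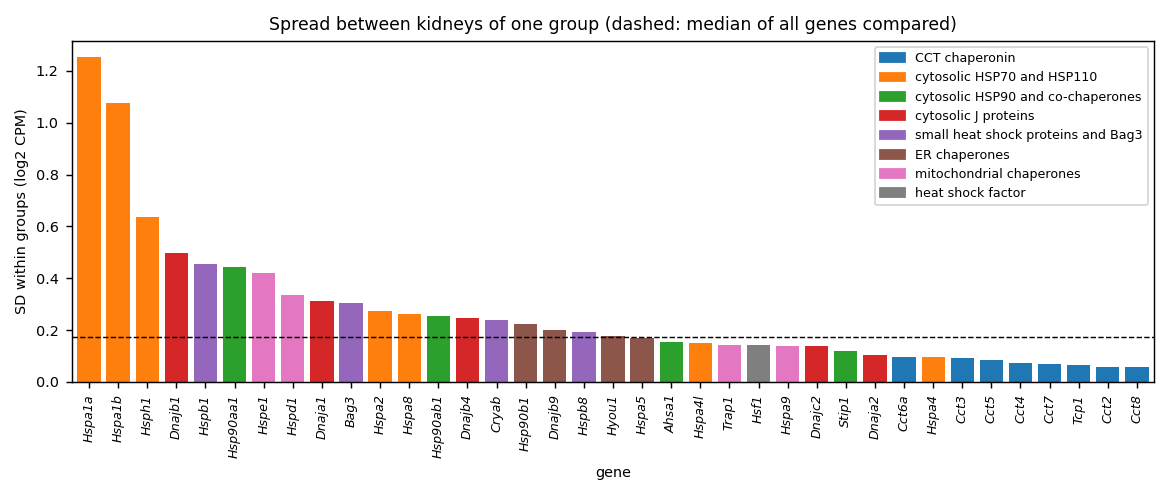
SD of log2 CPM within groups for each of the 37 members, pooled over the 4 groups and coloured by role, with the median of the 11072 genes compared as a dashed line. The heat-inducible *Hspa1a* and *Hspa1b* stand highest, and the CCT subunits take 8 of the 9 lowest places, with *Hspa4* among them.

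For these 7 variable members the same kidneys tended to be high or low. *Cxcl12* KO kidney 4 was the lowest of its group for 7 of the 7, *Myc* KO kidney 5 for 7 and *Myc* control kidney 4 for 6, while *Cxcl12* KO kidney 3 and *Myc* KO kidney 4 were each the highest of their group for 5. The 4 neutrophil markers summed to 28.2, 23.3, 98.2, 94.9 and 40.9 CPM in the *Cxcl12* KO kidneys and to 14.8 to 20.5 CPM in the *Cxcl12* controls. In the *Myc* cohort the neutrophil markers summed to between 104 and 194 CPM in KO and between 36.5 and 166 CPM in control kidneys. The 4 endothelial markers there summed to between 551 and 770 CPM in KO and between 395 and 671 CPM in control kidneys. With log2 CPM centred on each group's mean, Pearson's r of *Hspa1a* with *S100a8*, *S100a9* and *Csf3r* was 0.59, 0.56 and 0.35 in the *Myc* cohort. For the *Cxcl12* cohort these values were -0.046, -0.014 and 0.28. The 3 tubular injury markers summed to between 2536 and 3051 CPM in *Cxcl12* KO and between 1571 and 2368 CPM in *Cxcl12* control kidneys, and the 3 skeletal muscle markers to 0.076 to 3.84 CPM and 7.02 to 21.0 CPM. The part of these cells in the chaperone values was not tested.

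**Figure D4:**
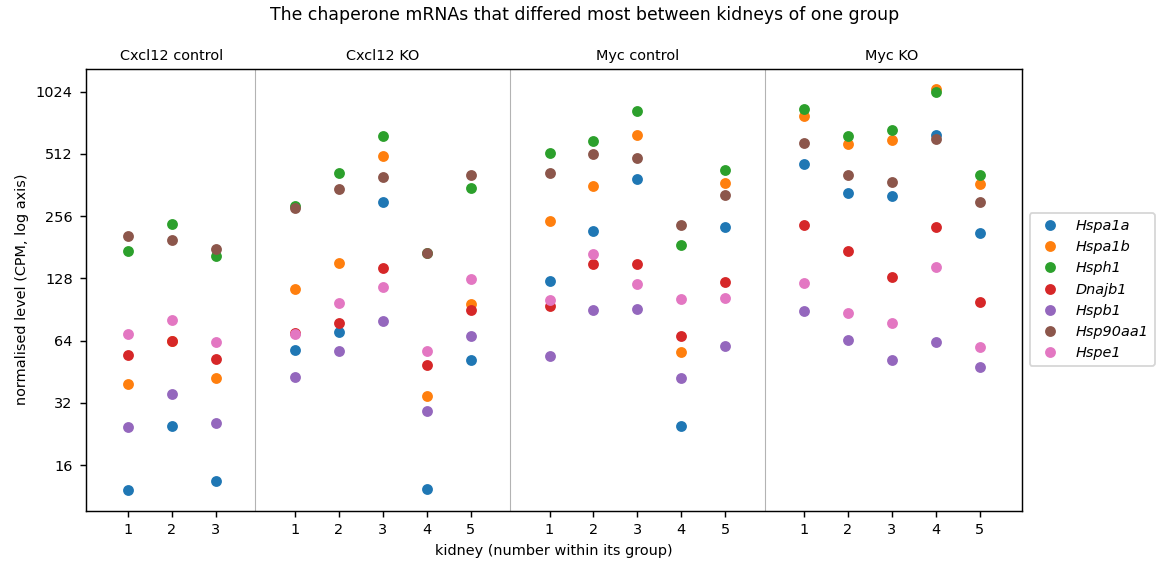
Levels of the 7 members with the largest spread within groups, in TMM-scaled CPM on a log axis, for each of the 18 kidneys. Each column of points is a kidney, and kidneys such as *Cxcl12* KO 4 and *Myc* control 4 are low for nearly all 7 genes at once.

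Of 60 further genes of the same pathways, in 6 lists, 1 was called by edgeR in the *Myc* cohort, beside 1.65% of all genes, so the count was at the background. Among 9 prefoldin and phosducin-like genes, which deliver clients to CCT or regulate it, 8 were negative in the *Myc* cohort and 0 were called by edgeR, with *Pfdn4* closest (log2 fold change -0.32, SE 0.089, adjusted p = 0.086). Of 10 further mitochondrial folding and quality control genes, 9 were negative and 1 fell: *Dnaja3*, a mitochondrial J protein, at means of 98.8 ± 5.66 CPM for KO and 136 ± 20.1 CPM for control kidneys (SD, n = 5 each; log2 fold change -0.46, SE 0.099, adjusted p = 0.040 by edgeR). When any 1 kidney other than *Myc* control kidney 3 was left out, 0 of the 60 genes were called.

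Of 18 further HSP90 and HSP70 co-chaperones, 13 were negative in the *Myc* cohort and 0 were called, with *Ptges3* (p23) closest (log2 fold change -0.23, SE 0.066, adjusted p = 0.096 by edgeR). *Ptges3* had 0.22 (SE 0.083) in the *Cxcl12* cohort, and the difference was -0.45 (SE 0.096, adjusted p = 0.064 by edgeR and 0.0013 by DESeq2). Of 19 further ER genes 13 were negative and 0 were called, with the smallest p for *Edem1* (log2 fold change 0.20, SE 0.086, adjusted p = 0.21 by edgeR). *Hsf2* (0.03, SE 0.10) and *Hsf4* (0.39, SE 0.34), and the cold-inducible *Cirbp* (0.12, SE 0.14) and *Rbm3* (0.17, SE 0.16), were not called either.

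In the *Cxcl12* cohort 0 of the same 60 genes were called by edgeR, beside 0% of all genes. The smallest p-values of the lists belonged to *Pdcl3* (log2 fold change 0.20, SE 0.077, adjusted p = 0.33 by edgeR), *Ptges3*, *Ern1* (0.18, SE 0.092), *Dnaja3* (-0.24, SE 0.11), *Hsf2* (0.31, SE 0.12) and *Rbm3* (0.29, SE 0.17). *Dnaja3* was thus on the negative side in both cohorts, unlike the CCT subunits, and the difference of its effects was -0.22 (SE 0.15, adjusted p = 0.65 by edgeR).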

How the data were processed

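Total RNA of whole kidneys was sequenced. The authors trimmed reads with Trimmomatic (0.32 per the submitters' processing notes), mapped them on GRCm38 and obtained gene counts from STAR (2.4.0), and deposited these raw counts for 45706 genes, not normalized; the annotation is not given in the sources used here. The column that ignores strand was taken (each strand held about as many, 51.8% to 52.8%). From 29.4% to 32.6% of the reads were in rows that name no gene and were left out. Names came from GENCODE vM21, which matched 45143 IDs.

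Genes were kept per cohort by filterByExpr, TMM factors were applied, and KO was tested against control with the quasi-likelihood method of edgeR 4.0.16 (R 4.3.3), with Benjamini-Hochberg adjustment over all genes and a threshold of 0.05. The difference of KO effects used all 18 kidneys. A standard error is the log2 fold change over the square root of F. Alternatives were DESeq2 1.42.0, limma 3.58.1 (voom), RLE factors, no low-count filter, a replicate block, a term for the low-unmapped libraries, leaving them out, and leaving out each kidney. The paper calls the mice littermates, but the sources used here give the litter or cage of no kidney. Litters could thus not enter the fits, and p-values measure the spread between these kidneys. Kidneys of one group differed beyond counting noise in all 33 pairs (chi-square per degree of freedom at least 6.31).

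Members, lists and tests were chosen with earlier results of these data known. Every kidney's values are given for members that were called, that had one of the 3 smallest p-values of a cohort or the largest change of their role in the *Myc* cohort, and for *Hsf1*; *Hsph1*, *Tcp1* and others outside this rule were named after their values were seen. Of the listed pathway genes *Hspa14* matched no symbol. In a test on simulated data the *Myc* fit recovered 70 of 88 genes changed by 1 log2 unit and 103 of 103 changed by 2, the *Cxcl12* fit 58 of 89 and 101 of 102, and the difference 20 of 90 and 99 of 110. False calls made up 6.49% of all calls in the *Myc* fit, 6.47% in the *Cxcl12* fit and 4.8% for the difference. Every simulated gene had the same spread beyond counting noise, and no difference between library groups was simulated. These rates therefore need not hold for the kidneys themselves. Changes below 1 log2 unit, the size of the CCT effects, were not simulated. Recovery at the spread of single members, from an SD of log2 CPM within groups of 0.057 (*Cct8*) to 1.25 (*Hspa1a*), was not tested.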

Additional observations from a re-analysis of the deposited data

Results flagged for a closer look

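In 3 of 39 groups of 5 kidneys tested over the 13 members given kidney by kidney, 1 kidney stood apart from the other 4 by Dixon's ratio, which chance alone would do in about 1 in 20 groups. For *Cct3* it was *Myc* KO kidney 1, at 199.3 CPM against 162 to 168 CPM in the other *Myc* KO kidneys (ratio 0.85, critical value 0.71). Without that kidney the log2 fold change of *Cct3* was more negative, and it was still called. For *Hspa1a* (298.6 CPM, ratio 0.80) and *Hspa1b* (498.1 CPM, ratio 0.75) it was *Cxcl12* KO kidney 3. Without it the log2 fold changes in the *Cxcl12* cohort were lowest, at 1.52 for *Hspa1a* and 1.03 for *Hspa1b*.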

How the results depend on the processing

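Of 37 members, the 2 called in the *Myc* cohort became 9 with DESeq2, 5 with a term for the low-unmapped libraries, 0 with only the libraries of 5% or more unmapped reads, 0 with the replicate block and 0 to 4 when 1 kidney was left out. The 1 pathway gene called became 3 with DESeq2, 5 with that term, 0 with the block and 0 to 4 with 1 kidney left out. Over all genes, the 246 of 14936 called became 1139 with DESeq2 and 954 with the term. They became 8 of 15033 with only the libraries of 5% or more unmapped reads, and 18 with the block. With 1 kidney left out they ranged from 21 to 877. The 0 members called in the *Cxcl12* cohort became 2 with DESeq2 and 2 without the low-count filter (*Hspa1a* and *Hspb1*). These stood beside 355 of 15154 and 214 of 27956 genes in all. The 0 called for the difference became 8 with DESeq2, 4 with the term and 0 to 2 with 1 kidney left out. Over all genes these settings called 314, 133 and 1 to 75. Limma and RLE factors gave the same counts of members and pathway genes as the reported fit. The cause of these shifts was not tested. The median log2 fold change of the members ranged from -0.14 to 0.00 (*Myc* cohort) and from 0.08 to 0.17 (*Cxcl12* cohort). Among members given kidney by kidney, signs turned for *Hspa4l* in the *Myc* cohort (-0.024 to 0.074 with 1 kidney left out), for *Hspb1* in the *Myc* cohort (0.17 with only the libraries of 5% or more unmapped reads, -0.25 to 0.031 with 1 kidney left out) and for *Cct6a* in the *Cxcl12* cohort (-0.025 with the term, -0.031 with only those libraries). Deviations of kidneys with the same replicate number correlated at -0.21 to 0.40 (*Myc* cohort, mean 0.053) and -0.032 to 0.13 (*Cxcl12* cohort, mean 0.068). For different numbers the means were -0.011 and -0.017, with ranges of -0.52 to 0.48 and -0.13 to 0.19. Of the 5 *Myc* KO kidneys, 1 correlated best with the control of its own number. This held for 2 of the 3 *Cxcl12* KO kidneys that have such a control. So few pairs cannot decide whether the numbers mark paired kidneys. Depth limited the members little: the lowest count of any member in a library was 77 (*Hspa2*).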

Other observations

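Within groups, *Hspa1a* tended to be lower in the kidneys with more mRNA of *Havcr1* (KIM-1, a marker of injured proximal tubule). Over the 18 kidneys, with log2 CPM centred on each group's mean, Pearson's r was -0.75 (permutation p = 0.0019 within groups, 100000 permutations, 2-sided, Benjamini-Hochberg adjusted p = 0.015 over 8 relations) and Spearman's rho was -0.54 (permutation p = 0.040, adjusted 0.32). Without the 2 kidneys farthest from the median in *Havcr1*, r was -0.66. It was -0.71 for the *Myc* cohort and -0.84 for the *Cxcl12* cohort, and -0.84 among the 6 low-unmapped and -0.75 among the 12 other libraries. The relation was picked after the values were seen, and it fails the correction by rank. It was not shared by the other tubular injury markers, *Lcn2* (r = 0.53) and *Krt20* (r = 0.088).

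The other 7 relations of *Hspa1a* had adjusted permutation p-values of at least 0.36 by Pearson's r: *Lcn2* (r = 0.53), *Csf3r* (0.31), *S100a9* (0.26), *S100a8* (0.26), *Krt20* (0.088), *Hsf1* (0.13) and *Cct5* (-0.33). *Havcr1* itself stood at means of 203 ± 79.3 CPM for *Myc* KO and 507 ± 298 CPM for *Myc* control kidneys (SD, n = 5 each), a log2 fold change of -1.32 (SE 0.43) that was not called (adjusted p = 0.12 by edgeR).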
